A study of Homo sapiens with 14 samples.

Results

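The proteasome subunit genes described here were the genes whose symbol is PSMA, PSMB, PSMC, PSMD or PSME followed by a number, without PSMB8 and PSMB9. They were chosen by name from the array annotation, counting probe sets annotated to 1 gene and taking for each gene the probe set with the highest mean signal. There were 34 of them among the 11963 genes with such a probe set, and all 34 passed the filter on low signals that left 7720 genes to test. PSMC3IP and PSME3IP1, whose symbols start in the same way but do not name subunits, were not counted. PSMA6 and PSME2 had only probe sets that also name another gene, and PSMA8, PSMB11, PSMC5, PSMD7 and PSMD13 were not analysed here.

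Gene expression was measured on 14 Affymetrix arrays of U2OS ER-E2F1 cells, a human osteosarcoma line that stably carries the transcription factor E2F1 fused to an estrogen receptor domain, so that 4-hydroxytamoxifen (OHT) switches the fusion on. Cells received a lentivirus with the shFOXO707 or shFOXO33 hairpin, each aimed at FOXO1 and FOXO3, or a scrambled hairpin (sh-scr), and were changed to medium without serum 24 h later, for 24 h. They were then kept for 6 h in serum-free medium with or without 20 nM OHT. The question was which transcripts follow E2F1 activation, and which of those depend on the FOXO factors. With OHT there were 2 arrays of shFOXO707 cells, 2 of shFOXO33 cells and 4 of scrambled cells. Without OHT there was 1 array of shFOXO707 cells, 1 of shFOXO33 cells and 4 of scrambled cells. "Knockdown cells" below means both hairpins pooled, 4 arrays with OHT and 2 without. Every group carried ER-E2F1 and a lentivirus, and all were starved of serum, so an effect of OHT itself and an effect of E2F1 cannot be told apart. Nothing in the sources tells whether the arrays of a group came from independent cultures. The p-values therefore cover the variation among these arrays alone, and it may be technical.

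The proteasome is the barrel-shaped protease that degrades ubiquitin-tagged proteins in the cytosol and nucleus. Its core is made of rings of alpha subunits, which form the gate, and rings of beta subunits, some of which carry the active sites (PSMB5, PSMB6 and PSMB7). The cap that feeds the core has a base of ATPases, which unfold the substrate, with scaffold and ubiquitin receptor subunits, and a lid, which removes the ubiquitin chain. Subunits are made in fixed proportions, chaperones assemble them, and alternative activators can replace the cap. The transcription factor NFE2L1 is known to raise the whole set together when proteasome activity drops.

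E2F and forkhead factors act at promoters, so the promoter windows of the members that hold an E2F word are shown, with that of PSMD2, the member that rose most with OHT. RefSeq windows (GRCh38.p14) running from 250 bases before to 50 bases after the annotated start were available for 29 of the 34 members. PSMA7, PSMB1, PSMB6, PSMB7 and PSMD4 are named only. The E2F words searched, on both strands, were TTTGGCGC, TTTCCCGC, TTTCGCGC and TTTGCCGC. They are written in capitals below, and 0 of these matches overlapped one of the other motifs searched. The PSMA1 window is chr11:14520337-14520636 on the minus strand, with TTTCCCGC starting 154 bases before the annotated start. The PSMB3 window is chr17:38752491-38752790 on the plus strand, with TTTCCCGC starting 120 bases before it. The PSMD5 window is chr9:120842873-120843172 on the minus strand, with TTTGGCGC 27 bases after it. The PSMD9 window is chr12:121888540-121888839 on the plus strand, with TTTGGCGC 26 bases before it. The PSMD2 window, chr3:184298991-184299290 on the plus strand, holds none of these words.
PSMA1: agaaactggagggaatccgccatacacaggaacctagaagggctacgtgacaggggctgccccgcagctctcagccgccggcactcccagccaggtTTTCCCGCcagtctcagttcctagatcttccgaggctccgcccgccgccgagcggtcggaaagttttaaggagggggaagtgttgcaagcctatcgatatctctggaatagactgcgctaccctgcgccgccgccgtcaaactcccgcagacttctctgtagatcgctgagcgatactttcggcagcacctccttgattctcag
PSMB3: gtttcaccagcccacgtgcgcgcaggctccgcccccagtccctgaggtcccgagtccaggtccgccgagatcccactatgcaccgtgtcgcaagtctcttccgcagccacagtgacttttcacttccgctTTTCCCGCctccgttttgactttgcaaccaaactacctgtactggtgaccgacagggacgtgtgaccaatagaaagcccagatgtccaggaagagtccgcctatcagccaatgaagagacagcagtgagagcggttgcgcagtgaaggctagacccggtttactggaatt
PSMD5: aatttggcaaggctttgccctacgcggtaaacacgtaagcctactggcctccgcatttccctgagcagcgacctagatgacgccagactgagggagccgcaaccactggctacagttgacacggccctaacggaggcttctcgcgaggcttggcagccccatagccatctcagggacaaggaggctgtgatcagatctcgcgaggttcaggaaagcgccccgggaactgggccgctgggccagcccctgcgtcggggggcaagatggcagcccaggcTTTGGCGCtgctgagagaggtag
PSMD9: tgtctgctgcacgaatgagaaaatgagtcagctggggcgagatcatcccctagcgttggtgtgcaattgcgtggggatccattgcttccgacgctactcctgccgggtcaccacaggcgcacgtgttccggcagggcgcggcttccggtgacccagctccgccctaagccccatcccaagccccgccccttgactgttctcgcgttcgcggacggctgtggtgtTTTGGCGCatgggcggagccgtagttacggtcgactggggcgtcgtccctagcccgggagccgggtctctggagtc
PSMD2: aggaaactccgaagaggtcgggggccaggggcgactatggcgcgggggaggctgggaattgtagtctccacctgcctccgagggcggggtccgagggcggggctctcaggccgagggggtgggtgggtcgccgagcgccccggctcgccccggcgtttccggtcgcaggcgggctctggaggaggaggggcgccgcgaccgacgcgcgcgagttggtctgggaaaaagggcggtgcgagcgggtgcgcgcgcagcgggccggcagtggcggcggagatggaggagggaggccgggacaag

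An E2F word was thus present in 4 of 29 members' windows (13.8%), against 5.78% of the 6440 windows of genes tested and 3.33% of all 27305 windows. The forkhead word GTAAACA was found in 2 of the 29, PSMB2 and PSMD5 (6.90%), against 2.16% of the genes tested and 3.41% of all windows. The antioxidant response element was searched as TGACNNNGC or TGAGNNNGC and was found in 15 of 29 members (51.7%), against 32.9% of the genes tested. The NF-Y word CCAAT was found in 14 (48.3%), against 37.7% of the genes tested, and the ETS word CCGGAAG in 9 (31.0%), against 19.6%. These matches describe letters in a window. They do not show binding, and a window without a match tells nothing of the factor. Of the 4 genes with an E2F word, PSMA1, PSMB3 and PSMD9 fell with OHT in scrambled cells as described next, and PSMD5 did not pass the test. With arrays centred on their median PSMD9 alone of these was still called.

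The signals were scaled by the authors to a common trimmed mean of 500 on every array, but the median signal was 114 to 119 on the 8 arrays with OHT and 137 to 143 on the 6 without, and the median gene fell by 0.23 on the log2 scale with OHT in scrambled cells. FOXO3, a target of the hairpins, averaged 809.6 in shFOXO707 cells with OHT and 307.3 in shFOXO33 cells with OHT, against 1793 in scrambled cells with OHT. FOXO1 averaged 235.9 in shFOXO707 cells with OHT and 162.6 in shFOXO33 cells with OHT, against 501.3 in scrambled cells with OHT. Without OHT FOXO3 was at 273.8 in the shFOXO707 cells and 137.9 in the shFOXO33 cells, against 449.2 in scrambled cells. Of the 10 listed osteoblast markers, 8 had a probe set and 6 passed the filter. COL1A1 averaged 7428 in scrambled cells with OHT, and RUNX2 was below the filter. SPARC averaged 8034 in shFOXO707 cells with OHT and 804.1 in shFOXO33 cells with OHT, against 8802 in scrambled cells with OHT. In the same order, ALPL averaged 86.2 and 233 against 110.4, SPP1 369.9 and 235.6 against 210.5, and COL1A1 7253 and 7152 against 7428. COL1A2 averaged 108.1 and 156.1 against 188.2, and MSX2 678.2 and 538.5 against 904.2. The markers thus did not move together. Summed over the 7 blood cell markers with a probe set, the signal lay between 298.8 and 450.5 on every array. The sum over 7 epithelial markers (3 past the filter) was 3589 to 3683 in shFOXO707 cells with OHT and 5941 to 6292 in shFOXO33 cells with OHT, against 5257 to 5557 in scrambled cells with OHT. Most of that sum was KRT18 and KRT8. EPCAM averaged 402 in shFOXO707 cells with OHT and 337.3 in shFOXO33 cells with OHT, against 268.9 in scrambled cells with OHT. The sum over 6 neural markers (4 past the filter) was 12120 to 12590 in scrambled cells with OHT, against 9654 to 10310 without. Most of that sum was NEFL (4482 against 2783) and TUBB3 (7478 against 6651), which were higher with OHT. SNAP25 (298.8 against 322.5), SYT1 (29.46 against 117.8) and OLIG2 (76.97 against 106.8) were lower, and GFAP was below the filter (23.07 against 16.66). The ratio of the 3′ to the 5′ ACTB probe set, a sign of RNA quality, was 1.95 to 2.04 in shFOXO707 cells and 1.60 to 1.63 in shFOXO33 cells with OHT, against 1.60 to 1.74 in scrambled cells with OHT and 1.5 to 1.59 in scrambled cells without. The part of these measures in the differences below was not tested.

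With OHT, most proteasome subunit genes stood lower in scrambled cells on the signals as deposited, and how far they lay from the median of all genes depended on the scaling. PSME3, PSMD4, PSMD6, PSMD10 and PSMD3, genes of the activators, the cap and its assembly, fell by 0.67 to 0.84 on the log2 scale, and PSMD2 and PSMA7 rose. In limma with Benjamini-Hochberg adjustment over 7720 genes (called at an adjusted p under 0.05), 2 of 34 members rose and 20 fell in scrambled cells, where 24.0% of all genes tested rose and 46.4% fell. This fit pools the hairpins, so their difference in a gene enters the error of the scrambled comparison too. A member not called here may therefore still differ between the scrambled arrays. The members' median log2 change was -0.28, against -0.23 for all genes tested. The split depends on the scaling: 6 rose and 9 fell when each array was centred on its median, where 33.3% of all genes rose and 29.8% fell, and 2 rose and 26 fell after quantile normalization, where 27.4% of all genes rose and 40.3% fell. The members' median change was -0.04 with arrays centred, against 0.01 for all genes tested, and -0.37 after quantile normalization, against -0.15. PSMA5, PSMC2, PSMD3, PSMD4, PSMD6, PSMD9, PSMD10, PSME3 and PSME4 fell under all 3 scalings, and PSMD2 and PSMA7 rose under all 3. A lower array signal does not separate fewer transcripts per cell from a change in the cells present, which bulk RNA cannot tell apart.

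**Figure D1:**
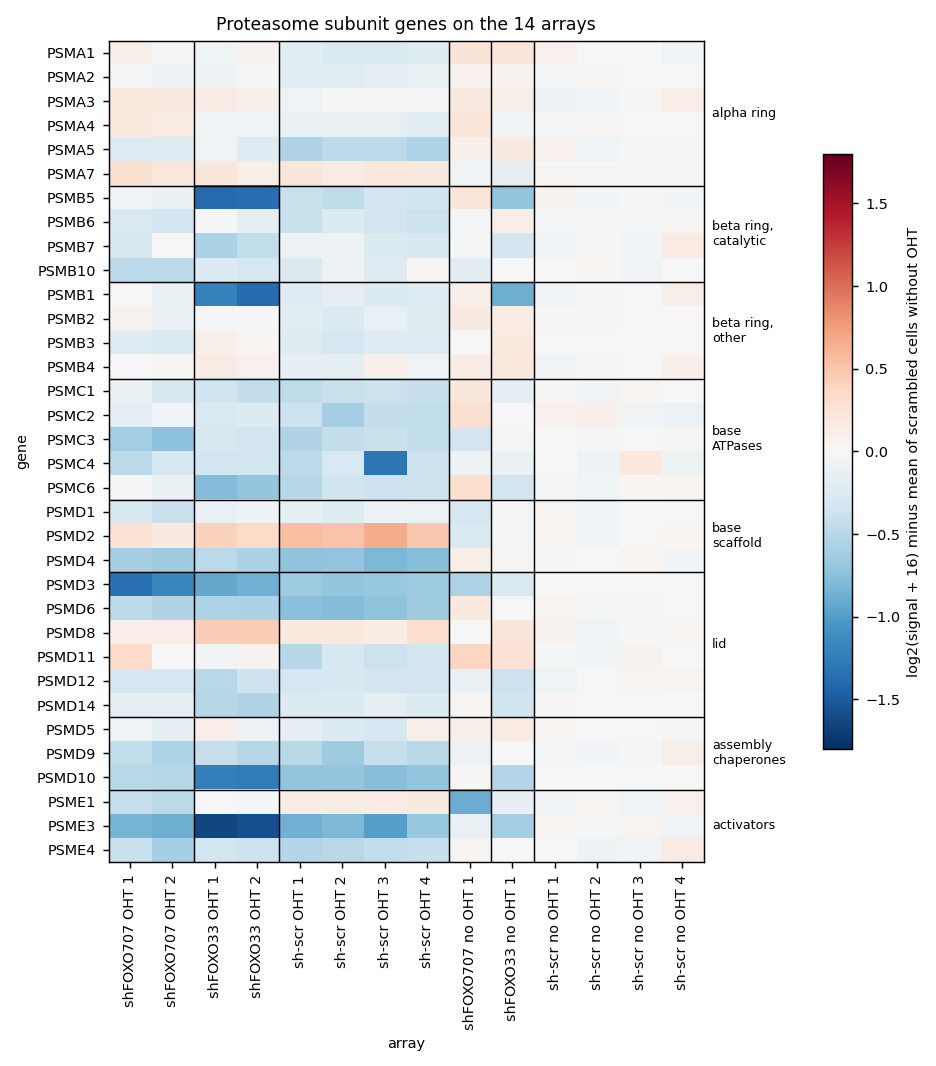
Each cell of the heat map is the log2(signal + 16) of 1 member (down the page, grouped by role) on 1 of the 14 arrays (across), minus that gene's mean in scrambled cells without OHT. PSMD2 is red on all 8 arrays with OHT, PSMD4, PSMD6 and PSMD3 are blue on all 8, and PSMB5 and PSMB1 are bluer on the shFOXO33 arrays than on arrays of the other viruses with the same treatment.

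The alpha ring genes moved in both directions with OHT. In scrambled cells 1 of 6 rose (PSMA7) and 3 fell (PSMA1, PSMA2 and PSMA5), while with each array centred on its median 2 rose and 1 fell. The shares of all genes tested were 24.0% rising and 46.4% falling, and 33.3% and 29.8% with arrays centred. PSMA7 had signals of 7461, 7164, 7414 and 7350 in scrambled cells with OHT, against 6557, 6422, 6383 and 6586 without. In knockdown cells PSMA7 had 7876 and 7431 (shFOXO707) and 7476 and 6967 (shFOXO33) with OHT, against 6137 (shFOXO707) and 5808 (shFOXO33) without. No array with OHT overlapped the arrays of the same virus without it, and the rise was small, 0.18 ± 0.04 (log2, SE) in scrambled cells (adjusted p = 0.00159) and 0.32 ± 0.05 in knockdown cells (adjusted p = 0.000132). PSMA5, another ring subunit, had 2411, 2524, 2533 and 2396 in scrambled cells with OHT, against 3708, 3342, 3483 and 3564 without. It fell by 0.51 ± 0.05 in scrambled cells (adjusted p = 1.12e-06), more than any other alpha ring gene. PSMA3 and PSMA4 changed by -0.03 and -0.14 in scrambled cells and were not called, and PSMA3 was called higher (0.21) with arrays centred on their median. The scrambled PSMA4 arrays with OHT (4958 to 5226) all lay below those without (5550 to 5742). The difference between hairpins in PSMA4 enters the error of the pooled fit.

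Among the catalytic beta subunits, 0 of 4 rose and 1 fell with OHT in scrambled cells. Of all genes tested, 24.0% rose and 46.4% fell there. The estimates of all 4 subunits pointed down (-0.14 to -0.39). PSMB6, which cleaves after acidic residues, had 1659, 1852, 1720 and 1679 in scrambled cells with OHT, against 2158, 2232, 2143 and 2234 without, and fell by 0.34 ± 0.07 (adjusted p = 0.000595). In knockdown cells PSMB6 had 1814 and 1714 (shFOXO707) and 2129 and 1964 (shFOXO33) with OHT, against 2135 (shFOXO707) and 2363 (shFOXO33) without. PSMB6 was not called in scrambled cells with arrays centred on their median (adjusted p = 0.228). PSMB5, which carries the chymotrypsin-like site that bortezomib blocks, had 1779, 1717, 1860 and 1831 in scrambled cells with OHT, against 2471, 2282, 2395 and 2280 without. Its scrambled arrays with and without OHT did not overlap, yet the change of -0.39 ± 0.28 was not called (adjusted p = 0.237), because the fit pools the hairpins and their difference in this gene enters its error; with the hairpins as separate groups the same change had an adjusted p of 3.48e-07. With the hairpins fitted apart PSMB5 changed with OHT by -0.31 in shFOXO707 cells and by -0.68 in shFOXO33 cells. Each of these changes is taken against 1 array without OHT, so no call is given for it. PSMB7, which cleaves after basic residues, had 2516, 2519, 2246 and 2185 in scrambled cells with OHT, against 2575, 2598, 2584 and 2949 without, and changed by -0.18 ± 0.11 (adjusted p = 0.166). In knockdown cells PSMB7 had 2190 and 2660 (shFOXO707) and 1802 and 1953 (shFOXO33) with OHT, against 2602 (shFOXO707) and 2105 (shFOXO33) without. PSMB10, the inducible counterpart of PSMB7, changed by -0.14 in scrambled cells and was not called. Of the structural beta subunits, PSMB2 (-0.20) and PSMB3 (-0.24) fell, and PSMB1 (-0.22) and PSMB4 (-0.07) were not called. With arrays centred on their median PSMB4 was called higher, and PSMB2 and PSMB3 were not called. The scrambled arrays of PSMB1 (6261 to 6604 with OHT, 7139 to 8024 without) and of PSMB7 did not overlap either. For both genes the difference between hairpins enters the error. The other probe set of PSMB2 pointed up (0.35), and the mean of its probe sets gave 0.07.

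All 5 ATPase genes measured fell with OHT in scrambled cells, by 0.41 to 0.60 on the log2 scale, although with arrays centred on their median only PSMC2 was still called. Their median change was -0.46, against -0.23 for all genes tested, of which 46.4% fell (29.8% with arrays centred). PSMC2 had 3642, 3128, 3547 and 3534 in scrambled cells with OHT, against 5070, 5100, 4580 and 4435 without, a change of -0.47 ± 0.08 (adjusted p = 0.000121). PSMC3 had 1716, 1857, 1895 and 1843 in scrambled cells with OHT, against 2527, 2463, 2502 and 2548 without, a change of -0.46 ± 0.10. PSMC4 had the largest estimate (-0.60 ± 0.17, adjusted p = 0.00694), and 1 scrambled array with OHT was far lower than the others, at 425.9 against 773.4 to 889.6. Without that array PSMC4 changed by -0.37 and was still called. PSMC1 and PSMC6, the remaining ring members, changed by -0.41 each, and the PSMC6 call (adjusted p = 0.0382) was lost when any 1 of the 8 scrambled arrays was left out (adjusted p = 0.053 to 0.0883). Its scrambled arrays did not overlap, at 2478 to 2754 with OHT and 3366 to 3669 without. The difference between hairpins in PSMC6 (0.66 with OHT) enters the error of this call. In knockdown cells 3 of the 5 fell (PSMC1, PSMC2 and PSMC3) and 0 with arrays centred on their median, where 37.3% and 21.9% of all genes tested fell. The PSMC1 and PSMC2 calls there were lost without the shFOXO707 array without OHT (-0.14 and -0.18), and that of PSMC3 without the shFOXO33 array without OHT (-0.15). The PSMC3 call was also lost without either shFOXO707 array with OHT (adjusted p = 0.0816 and 0.0869), with no filter (adjusted p = 0.0507) and without any 1 of 6 of the scrambled arrays (adjusted p = 0.0502 to 0.051). In knockdown cells PSMC2 had 4239 and 4617 (shFOXO707) and 3951 and 4023 (shFOXO33) with OHT, against 5851 (shFOXO707) and 4753 (shFOXO33) without.

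The base scaffold and ubiquitin receptor genes went in opposite directions. PSMD2, the scaffold on which ubiquitin shuttle proteins dock, had 4389, 4295, 4772 and 4214 in scrambled cells with OHT, against 3075, 2873, 3013 and 3092 without. In knockdown cells PSMD2 had 3610 and 3387 (shFOXO707) and 4030 and 3877 (shFOXO33) with OHT, against 2523 (shFOXO707) and 2974 (shFOXO33) without. Every array with OHT was above every array without it. PSMD2 rose by 0.55 ± 0.07 in scrambled cells (adjusted p = 7.22e-06) and by 0.44 ± 0.08 in knockdown cells (adjusted p = 0.000521), the largest rise of any member in both. PSMD4, a receptor that binds ubiquitin chains, had 1518, 1535, 1425 and 1467 in scrambled cells with OHT, against 2541, 2511, 2563 and 2437 without. In knockdown cells PSMD4 had 1649 and 1603 (shFOXO707) and 1795 and 1690 (shFOXO33) with OHT, against 2704 (shFOXO707) and 2588 (shFOXO33) without. All OHT arrays lay far below all others, and PSMD4 fell by 0.75 ± 0.05 in scrambled cells (adjusted p = 2.01e-08) and by 0.65 ± 0.06 in knockdown cells (adjusted p = 1.5e-06). PSMD1, the other scaffold, changed by -0.15 ± 0.08 in scrambled cells and was not called. Its scrambled arrays with OHT (2761 to 3009) lay below those without (3049 to 3342), and the difference between hairpins enters its error.

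Of the 6 lid genes, 0 rose and 4 fell with OHT in scrambled cells (PSMD3, PSMD6, PSMD11 and PSMD12). Of all genes tested, 24.0% rose and 46.4% fell there. The fall of PSMD11 was not called in limma with the mean of its probe sets (adjusted p = 0.214). PSMD3 and PSMD6 fell with arrays centred on their median too, and PSMD8 rose. So centred, 33.3% of all genes rose and 29.8% fell. PSMD6, a structural lid subunit, had 1816, 1790, 1866 and 1968 in scrambled cells with OHT, against 3196, 3052, 3005 and 3084 without. In knockdown cells PSMD6 had 2223 and 2111 (shFOXO707) and 2099 and 2064 (shFOXO33) with OHT, against 3483 (shFOXO707) and 3058 (shFOXO33) without. It fell by 0.72 ± 0.05 in scrambled cells (adjusted p = 4.89e-08), to 60.3% of the level without OHT. PSMD3, also structural, had 972.6, 941.8, 945.0 and 968.8 in scrambled cells with OHT, against 1541, 1521, 1533 and 1527 without, and fell by 0.67 ± 0.10 (adjusted p = 3.10e-05). In knockdown cells PSMD3 had 592.6 and 669.6 (shFOXO707) and 802.3 and 834.7 (shFOXO33) with OHT, against 1040 (shFOXO707) and 1260 (shFOXO33) without, and fell by 0.66 ± 0.12 (adjusted p = 0.000325). PSMD14, the deubiquitinase of the lid, changed by -0.23 ± 0.10 in scrambled cells and missed the threshold (adjusted p = 0.051). PSMD8 changed by 0.20 ± 0.09 and also missed it (adjusted p = 0.0587). The scrambled arrays did not overlap for PSMD14 (3086 to 3252 with OHT, 3633 to 3719 without). Those of PSMD8 did not overlap either (2158 to 2438 with OHT, 1877 to 2061 without). The difference between hairpins (0.37 for PSMD14 and -0.33 for PSMD8 with OHT) enters the error of both.

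Chaperones of the base and the alternative activators included 4 further genes that fell in scrambled cells, where 46.4% of all genes tested fell. PSMD10 (gankyrin), a base chaperone also known to bind RB1, the repressor of E2F factors, fell by 0.72 ± 0.17 in scrambled cells, and PSMD9 fell by 0.51 ± 0.07, while PSMD5 (-0.15) was not called. PSME3, the nuclear activator known for degradation without ubiquitin, had 565.0, 589.0, 517.7 and 647.0 in scrambled cells with OHT, against 1081, 1026, 1081 and 999.6 without. In knockdown cells PSME3 had 576.8 and 560.7 (shFOXO707) and 326.9 and 339.3 (shFOXO33) with OHT, against 952.0 (shFOXO707) and 674.9 (shFOXO33) without. The groups with and without OHT did not overlap within any virus, and PSME3 fell by 0.84 ± 0.17 in scrambled cells (adjusted p = 0.000662) and by 0.86 ± 0.21 in knockdown cells (adjusted p = 0.00352). The call in knockdown cells was lost without the shFOXO707 array without OHT (-0.61, adjusted p = 0.0659). Its 3 other probe sets gave changes of -0.57, -0.77 and -0.86 in scrambled cells. PSME4, a second nuclear activator, fell by 0.47 ± 0.07. PSME1, a subunit of the interferon-inducible activator, changed by 0.14 ± 0.14 and was not called, but it was called higher with arrays centred on their median. Its scrambled arrays with OHT (1430 to 1457) lay above those without (1232 to 1383), and the difference between hairpins enters its error.

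**Figure D2:**
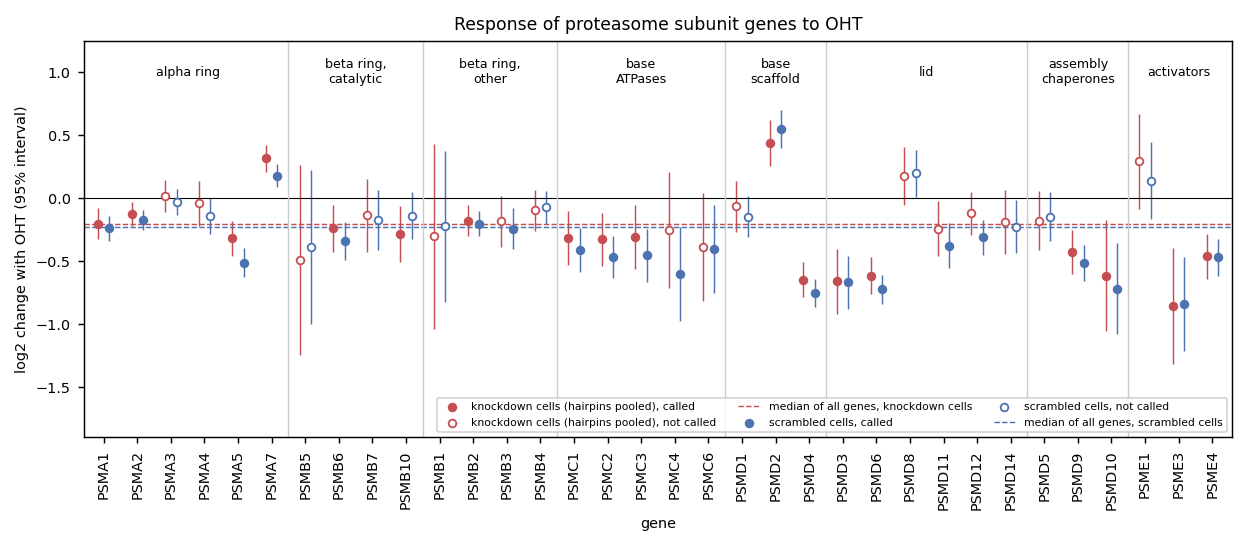
Log2 change with OHT (y axis, 95% confidence interval) for each member (x axis, grouped by role) in knockdown cells and in scrambled cells, filled where called in limma; dashed lines give the median of all genes tested, -0.20 in knockdown cells and -0.23 in scrambled cells. PSMD2 and PSMA7 lie above 0 and are called in both, PSMD8 and PSME1 lie above 0 in both without a call, and most others lie near the dashed lines or below them. Centring each array on its median moves 0 to about those lines.

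In knockdown cells 2 of 34 members rose with OHT and 16 fell, where 20.6% of all genes tested rose and 37.3% fell, and the members' median change was -0.24, against -0.20 for all genes tested. With arrays centred on their median 5 rose and 5 fell, where 29.7% of all genes rose and 21.9% fell. After quantile normalization 2 rose and 18 fell, where 23% of all genes rose and 31.9% fell, and the members' median change was -0.31, against -0.12 for all genes tested. Without the shFOXO707 array without OHT the count that fell was 10. By role, PSMA1, PSMA2 and PSMA5 of the alpha ring fell, PSMB6, PSMB10 and PSMB2 of the beta ring, PSMD4 of the scaffold group, PSMD3 and PSMD6 of the lid, PSMD9 and PSMD10 of the chaperones and PSME3 and PSME4 of the activators, beside the 3 ATPases. Of these, PSMD3, PSMD4, PSMD6 and PSME4 kept their call under every alternative run. PSMB6 and PSMB10 (-0.24 and -0.28) lost theirs without the shFOXO33 array without OHT. They also lost it in limma without either shFOXO707 array with OHT (adjusted p = 0.0546 to 0.0665). PSMD10 lost its call without the shFOXO707 array without OHT (-0.34). PSMA2 lost its call without either knockdown array without OHT, and PSMB2 without the shFOXO707 one. With the mean of probe sets neither PSMA2 nor PSMB2 was called (adjusted p = 0.72 and 0.868). The comparison in scrambled cells shares no array with this one. Whether the response differed between knockdown and scrambled cells was tested by the interaction, which subtracts the OHT change of scrambled cells from that of knockdown cells. For 0 members was it called in either direction, where 0.0777% of all genes tested were called higher and 0.272% lower, and 1 member, PSMA5, had an unadjusted p under 0.05. PSMA5 had an interaction of 0.19 ± 0.08 (95% interval 0.01 to 0.37, adjusted p = 0.430). Of the 34 estimates 26 were above 0, with a median of 0.05, against 0.03 for all genes tested. The intervals were wide for genes on which the hairpins differ: that of PSMB5 ran from -1.07 to 0.87, so a difference of that size was not detectable.

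With OHT present, knockdown cells had slightly more transcript of several subunits than scrambled cells. Of 34 members, 9 were higher in knockdown cells and 2 lower, where 14.7% of all genes tested were higher and 8.01% lower, and the members' median difference was 0.06, against 0.04 for all genes tested. With arrays centred on their median 5 were higher and 3 lower, where 12% of all genes were higher and 9.26% lower. After quantile normalization 8 were higher and 2 lower, where 13.4% of all genes were higher and 7.74% lower. The scrambled arrays with OHT also stand in the comparison of OHT with no OHT above. Of the alpha ring genes 4 of 6 were higher (PSMA1, PSMA2, PSMA3 and PSMA5), of which PSMA2 and PSMA3 were not called with arrays centred on their median. PSMA1 and PSMA5 kept their call under every alternative run. When each array was left out in turn, 3 of the 9 higher calls and 1 of the 2 lower calls were kept throughout. PSMA3 lost its call without scrambled array 1 with OHT (adjusted p = 0.0553), PSMB2 without scrambled array 2 (adjusted p = 0.0524), and PSMA2, PSMD4 and PSMD6 without any of several arrays.

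PSMD11, a lid subunit that clamps the lid to the core and limits assembly, differed most upward. It had 3059 and 2420 in shFOXO707 cells with OHT and 2290 and 2510 in shFOXO33 cells with OHT, against 1680, 1966, 1843 and 1904 in scrambled cells with OHT. Every knockdown array was above every scrambled one, by 0.47 ± 0.08 (adjusted p = 0.00156). Without OHT PSMD11 had 3161 in shFOXO707 cells and 2891 in shFOXO33 cells, against 2373, 2317, 2519 and 2407 in scrambled cells, and that difference missed the threshold (0.33 ± 0.10, adjusted p = 0.0669). The mean over both PSMD11 probe sets did not pass with OHT (adjusted p = 0.0889). PSMA5 had 3003 and 3009 in shFOXO707 cells with OHT and 3355 and 3008 in shFOXO33 cells with OHT, against the 2396 to 2533 given above for scrambled cells, and was higher by 0.32 ± 0.05 (adjusted p = 0.000903). Without OHT PSMA5 had 3771 in shFOXO707 cells and 3952 in shFOXO33 cells, above all scrambled arrays, but was not called (0.13 ± 0.06). PSMC2, with 3951 to 4617 on the knockdown arrays with OHT and 3128 to 3642 on the scrambled ones, was higher by 0.28 ± 0.08 (adjusted p = 0.0218). Without OHT the shFOXO33 array of PSMC2, at 4753, lay within the scrambled range. The PSMC2 call was lost without scrambled array 2 with OHT (adjusted p = 0.0696) and without shFOXO707 array 2 with OHT (adjusted p = 0.053).

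PSMD3 and PSMD2 were the members lower in knockdown cells with OHT. PSMD3 was lower on all 4 knockdown arrays than on any scrambled array, by -0.41 ± 0.10 (adjusted p = 0.00920). PSMD2 was lower by -0.25 ± 0.07 (adjusted p = 0.0204), with 3387 to 4030 on the knockdown arrays and 4214 to 4772 on the scrambled ones. The PSMD2 call was lost without scrambled array 3 with OHT (adjusted p = 0.0663), its highest. Without OHT, 1 of 34 members was higher in knockdown cells and 1 lower, where 4.84% of all genes tested were higher and 2.97% lower. PSMA1 was the higher one (0.23 ± 0.06, adjusted p = 0.0267), with 6136 in shFOXO707 cells and 6073 in shFOXO33 cells, against 5515, 5179, 5177 and 5013 in scrambled cells. With OHT PSMA1 had 5548 and 5276 in shFOXO707 cells and 4932 and 5448 in shFOXO33 cells, against 4527, 4357, 4339 and 4466 in scrambled cells (0.26 ± 0.05, adjusted p = 0.00156). PSMD3 was the lower one (-0.41 ± 0.12, adjusted p = 0.0499), at the edge of the threshold. The PSMA1 call without OHT was lost without scrambled array 2, 3 or 4 or either knockdown array (adjusted p = 0.059 to 0.0931), and that of PSMD3 without the shFOXO707 array (-0.28, adjusted p = 0.262) or any 1 scrambled array (adjusted p = 0.0698 to 0.0958).

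**Figure D3:**
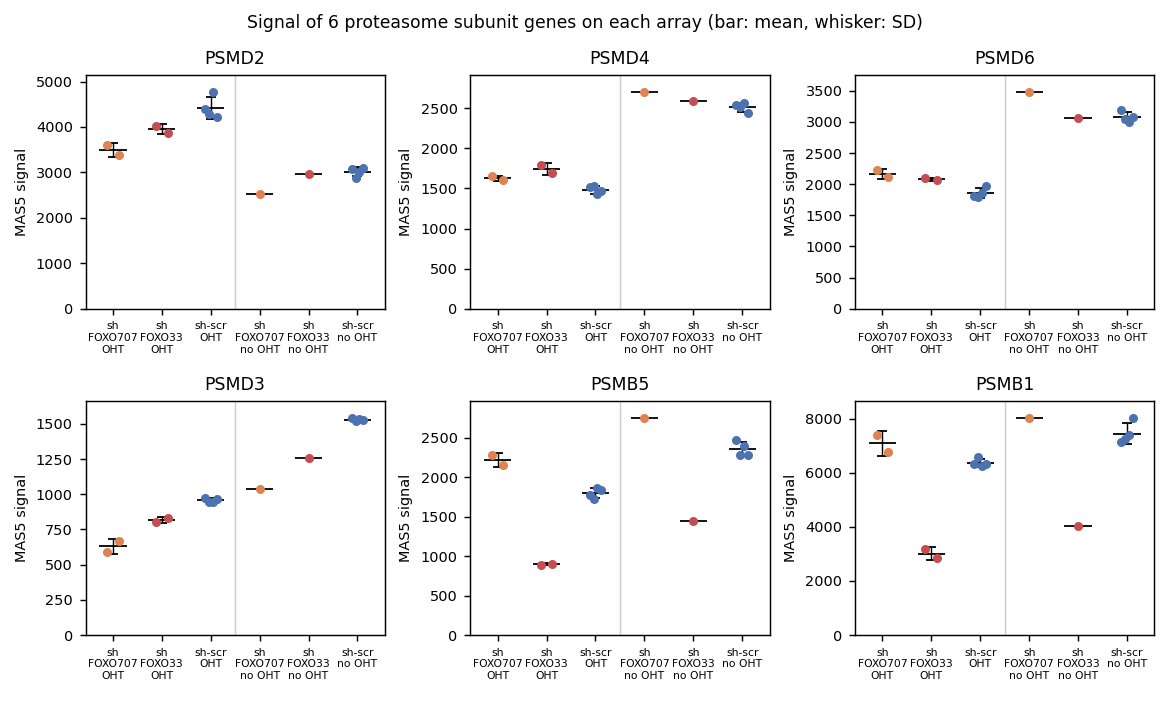
Signal (y axis, from 0) of 6 members on each array, by virus and treatment; points are arrays, bars are group means and whiskers SD, with no whisker for the groups of 1 array. PSMD2 is higher and PSMD4, PSMD6 and PSMD3 are lower on every array with OHT than on the arrays of the same virus without it, and the shFOXO33 arrays are lowest for PSMB5 and PSMB1.

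The hairpins also differed from each other, in the fit with the hairpins as separate groups. Its counts cannot be set against those of the pooled fit, where the difference between hairpins enters the error. With OHT, shFOXO707 cells were higher than shFOXO33 cells in 9 of 34 members and lower in 8, where 22.1% of all genes tested were higher and 21.4% lower, so the members' shares (26.5% and 23.5%) lay near those of all genes. Against scrambled cells with OHT, shFOXO33 cells were higher in 14 members and lower in 11, where 27.8% of all genes were higher and 21.5% lower. Likewise, shFOXO707 cells were higher in 15 and lower in 6, where 24.6% of all genes were higher and 17.2% lower. These comparisons share the scrambled arrays. The shFOXO707 arrays with OHT were also those with the high ACTB ratio given above. Their epithelial sum was lower through KRT18 and KRT8, while EPCAM was higher on them.

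The largest differences concerned beta ring genes. PSMB5 had 2276 and 2159 in shFOXO707 cells with OHT and 886.1 and 904.5 in shFOXO33 cells with OHT, set against 1717 to 1860 in scrambled cells with OHT. The hairpins thus lay on opposite sides of the scrambled cells, and the difference was 1.29 ± 0.06 (adjusted p = 1.18e-10). Against scrambled cells PSMB5 differed by 0.30 ± 0.05 in shFOXO707 cells (adjusted p = 0.000232) and by -0.99 ± 0.05 in shFOXO33 cells (adjusted p = 5.39e-10), at 49.8% of the scrambled signal. Without OHT, on other arrays, PSMB5 had 2747 in shFOXO707 cells and 1439 in shFOXO33 cells, against 2280 to 2471 in scrambled cells. PSMB1, a structural subunit of the beta ring, had 7419 and 6761 in shFOXO707 cells with OHT and 3179 and 2833 in shFOXO33 cells with OHT, against 6326, 6604, 6261 and 6315 in scrambled cells with OHT. Its difference was 1.23 ± 0.07 (adjusted p = 6.87e-10), and in shFOXO33 cells it stood at 47.1% of the scrambled signal. Without OHT PSMB1 had 8014 in shFOXO707 cells and 4048 in shFOXO33 cells, against 7139, 7240, 7405 and 8024 in scrambled cells. The low level in shFOXO33 cells was thus present with and without OHT for both genes. PSMB7 differed in the same direction (0.36 ± 0.09), and PSMB3 (-0.32 ± 0.04) and PSMB6 (-0.21 ± 0.06) in the other. PSMB7 was not called without shFOXO707 array 2 (0.22) or shFOXO33 array 1, nor PSMB6 without either of these.

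Outside the beta ring, PSMD10 (0.73 ± 0.06), PSMC6 (0.66 ± 0.06), PSMD14 (0.37 ± 0.05) and PSMA4 (0.23 ± 0.04) were higher in shFOXO707 than in shFOXO33 cells with OHT. PSMC6 and PSMD10 lay on opposite sides of the scrambled cells too, at 0.33 and 0.21 in shFOXO707 cells and -0.33 and -0.52 in shFOXO33 cells, all called. PSME3, with the arrays given above, was higher by 0.74 ± 0.09 (adjusted p = 6.33e-06). Its probe sets disagreed here, since another gave 0.77 and the remaining ones gave -0.09 and -0.17. The probe set used is of the type that can detect related transcripts (suffix x_at), as are those used for PSMA1, PSMA7 and PSMD4. PSME1 had 978.8 and 924.2 in shFOXO707 cells with OHT and 1315 and 1281 in shFOXO33 cells with OHT, against 1436, 1430, 1435 and 1457 in scrambled cells with OHT. It was lower in shFOXO707 cells than in shFOXO33 cells (-0.44 ± 0.06, adjusted p = 4.10e-05), and both hairpins lay below the scrambled cells. Without OHT PSME1 had 696.8 in shFOXO707 cells and 1171 in shFOXO33 cells, against 1264, 1348, 1232 and 1383 in scrambled cells. PSMD3 differed by -0.37 ± 0.06 and was below scrambled cells in both hairpins (-0.59 in shFOXO707 cells and -0.22 in shFOXO33 cells). PSMC3 had 1629 and 1502 in shFOXO707 cells with OHT and 2050 and 1975 in shFOXO33 cells with OHT (-0.36 ± 0.06), with the scrambled arrays in between. Without OHT PSMC3 had 1965 in shFOXO707 cells and 2453 in shFOXO33 cells. PSMD8 (-0.33 ± 0.06) also differed downward, and PSMA5, PSMA7 and PSMD9 (-0.08, 0.08 and -0.04) were not called.

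**Figure D4:**
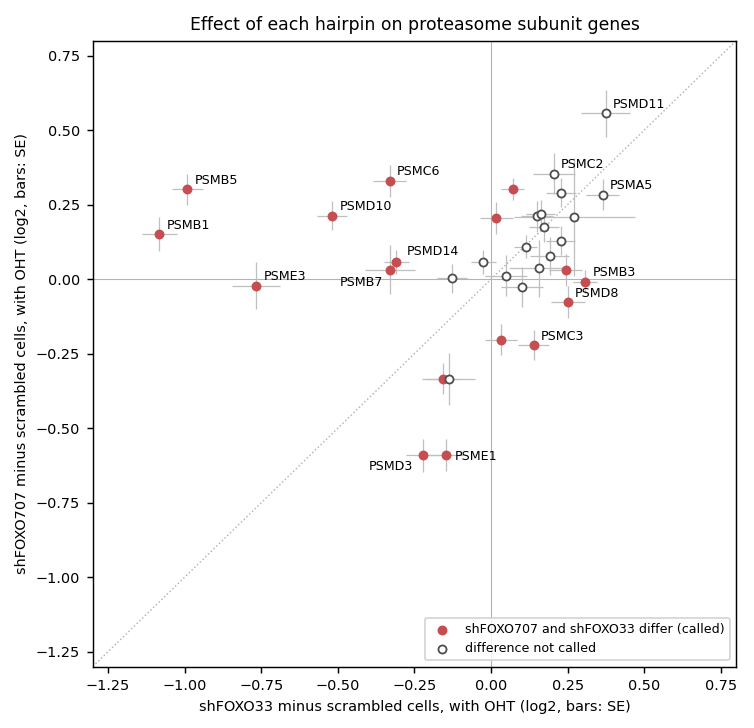
Log2 difference from scrambled cells with OHT for each member in shFOXO707 cells (y axis) and shFOXO33 cells (x axis), bars SE; filled points mark members called between the hairpins, and the dotted line marks equal effects. PSMB5 and PSMB1 sit far to the left, at -0.99 and -1.08 for shFOXO33 and above 0 for shFOXO707, while PSMD11 and PSMA5 lie above 0 for both.

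Genes that work with the subunits moved in several directions. With OHT in scrambled cells, 24.0% of all genes tested rose and 46.4% fell. Of 4 assembly chaperones tested whose symbols lie outside the naming rule, 2 rose and 2 fell with OHT in scrambled cells. PSMG1, part of the chaperone pair that builds the alpha ring, averaged 1204 in scrambled cells with OHT and 615.7 without, and rose by 0.97 ± 0.10 (adjusted p = 1.69e-06). Its partner PSMG2 rose by 0.38 ± 0.05, and POMP, which guides the beta ring, fell by 0.29 ± 0.04, a call lost with arrays centred on their median (adjusted p = 0.346). PAAF1, a chaperone of the base ATPases, fell by 0.88 ± 0.09. Of 8 other subunits and bound proteins 3 rose and 3 fell. ADRM1, a ubiquitin receptor of the base, rose by 0.84 ± 0.09, with averages of 2570 with OHT and 1426 without, and TXNL1, a thioredoxin-like protein bound to the cap, fell by 1.05 ± 0.08. PSMB9, the inducible counterpart of PSMB6, averaged 860.3 in scrambled cells with OHT and 265.2 without and rose by 1.65 ± 0.15 (adjusted p = 2.99e-07), while PSMB8, the inducible counterpart of PSMB5, was not called (0.12 ± 0.12) except with arrays centred on their median, where it rose.

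The counts in this paragraph stand beside 24.0% of all genes tested rising and 46.4% falling (33.3% and 29.8% with arrays centred). Of 8 listed regulators of the set, 6 passed the filter. With OHT in scrambled cells 4 rose under all 3 scalings, MAFF (1.17 ± 0.12) and MAFG (0.59 ± 0.11), the small partners of NFE2L1 and NFE2L2, NGLY1 (0.33 ± 0.07), the glycanase that processes NFE2L1, and NFE2L2 (0.33). NFE2L1 itself fell by 0.71 ± 0.09 (adjusted p = 5.79e-06), with averages of 823.5 with OHT and 1353 without, and KEAP1, the inhibitor of NFE2L2, fell by 0.38, a call lost with arrays centred on their median (adjusted p = 0.323). Of 8 other targets of NFE2L1 and NFE2L2, 0 rose and 6 fell (5 with arrays centred on their median), with SLC7A11, a cystine carrier, falling by 1.70 ± 0.14 and TXNRD1, a thioredoxin reductase, by 1.27 ± 0.28. For comparison with other large complexes, 0 of 9 COP9 signalosome genes rose and 5 fell, 1 of 12 genes of the translation factor complex eIF3 rose and 6 fell, and 0 of 7 CCT chaperonin genes rose and 5 fell. The medians of these complexes were -0.27, -0.21 and -0.27, beside -0.28 for the proteasome subunit genes. With arrays centred on their median these complexes had 1 rising and 2 falling, 2 rising and 0 falling, and 0 rising and 1 falling genes.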

How the data were processed

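Affymetrix signal intensities of 14 arrays were deposited by the authors as 1 table, made with MAS5 and scaled to a trimmed mean of 500, per the submitters' processing notes and the values themselves (no version stated). Of 22277 probe sets, 62 controls, 1043 naming several genes and 2108 naming none were left out. Of the 19064 naming 1 gene, 19052 had their symbol updated through the Entrez identifier. From these intensities log2(signal + 16) was computed, so fold changes of low genes are understated. Probe sets above the 40th percentile of mean log2 signal (6.57, a signal of 79.1) were kept, 1 per gene (highest mean). limma 3.58.1 in R 4.3.3 (lmFit, eBayes with trend, two-sided, Benjamini-Hochberg over 7720 genes, called at 0.05) compared arrays grouped by title, in 4 groups with hairpins pooled, and in 6 groups for comparisons of single hairpins. Errors are SE unless given otherwise. The fit was tested on simulated data in which the hairpins did not differ. That test could not show how a difference between hairpins affects the pooled fit.

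The members, gene lists and tests were chosen with earlier results of these data known. Every array is given for PSMB5, PSMB6 and PSMB7 and for the 3 called members with the largest change each way in each comparison; of other lists, up to 4 genes with the smallest adjusted p. Alternatives were the scaling, pseudocount, filter, variance trend, probe set choice, grouping, replicate block and leaving out each array. The number of arrays limits the precision, with 1 array per hairpin without OHT.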

Additional observations from a re-analysis of the deposited data

Results flagged for a closer look

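In 4 of 68 groups of 4 scrambled arrays, 1 array stood apart from the other 3, where chance picks about 1 in 20. With OHT, PSMC6 had 2478 on scrambled array 1 (the others 2716, 2725 and 2754) and PSMD14 had 3252 on scrambled array 3 (the others 3086, 3090 and 3103). Without OHT, scrambled array 4 was high for PSMB7, at 2949 (the others 2575, 2584 and 2598), and for PSMD9, at 1529 (the others 1367, 1390 and 1393).

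The hairpins share their targets but differed, with OHT, in 17 members by limma's test of the difference (shFOXO707 minus shFOXO33, log2). Higher in shFOXO707 cells were PSMB5 (1.29), PSMB1 (1.23), PSME3 (0.74), PSMD10 (0.73), PSMC6 (0.66), PSMD14 (0.37), PSMB7 (0.36), PSMA4 (0.23) and PSMC1 (0.19). Lower in shFOXO707 cells were PSME1 (-0.44), PSMD3 (-0.37), PSMC3 (-0.36), PSMD8 (-0.33), PSMB3 (-0.32), PSMD1 (-0.24), PSMB6 (-0.21) and PSMD2 (-0.18). PSMB6, PSMB7, PSMC1, PSMD1 and PSMD2 lost their call without at least 1 of the 4 knockdown arrays with OHT.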

How the results depend on the processing

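Of the values for single members under the alternatives, 823 of 884 kept their direction and call for OHT in scrambled cells, 804 of 884 for OHT in knockdown cells, 867 of 952 for knockdown with OHT, 826 of 884 without OHT, 884 of 884 for the interaction and 831 of 850 between hairpins. The scaling mattered most for OHT: with arrays centred on their median, 6 rose and 9 fell in scrambled cells and 5 rose and 5 fell in knockdown cells, and 5 were higher in knockdown cells with OHT. So centred, the log2 changes turned up in scrambled cells for PSMA1 (0.003), PSMA2 (0.069), PSMA3 (0.21), PSMB2 (0.039) and PSMB4 (0.17), and in knockdown cells for PSMA1 (0.036), PSMA2 (0.11) and PSMB2 (0.063). With the mean of probe sets PSMB2 turned to 0.073 for OHT in scrambled cells and to -0.054 for knockdown with OHT, PSMA2 turned to 0.17 between hairpins, and 14 members were higher in shFOXO707 than in shFOXO33 cells. With hairpins apart (6 groups), OHT raised 4 members in scrambled cells and 4 in knockdown cells, and knockdown cells were higher in 14 and lower in 9 with OHT, and higher in 3 and lower in 11 without. This fit leaves the difference between hairpins out of the error, and PSMB5 was called lower with OHT in scrambled cells in it. Its counts of members falling with OHT are not given here. With only shFOXO707 as knockdown, 15 were higher and 6 lower with OHT, and 7 and 5 without; PSMB1 (0.15), PSMB5 (0.30), PSMC6 (0.33) and PSMD10 (0.21) turned up with OHT, and PSMB5 (0.22) and PSMC6 (0.30) without. With only shFOXO33, 14 were higher and 11 lower with OHT, where the 6-group fit called 27.8% of all genes higher and 21.5% lower. PSMC3 (0.14) turned up with OHT. Single-hairpin counts without OHT are not given, since each hairpin had 1 array there. For knockdown without OHT, quantile normalization gave 2 higher and 0 lower, no trend in the variance 0 and 0, and a pseudocount of 1 or no filter 0 lower.

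Leaving out 1 array gave 2 to 3 rising and 19 to 22 falling members for OHT in scrambled cells, 2 to 3 and 10 to 17 in knockdown cells (10 without the shFOXO707 array without OHT), 5 to 10 higher and 1 to 3 lower for knockdown with OHT (5 without scrambled array 2, 1 without scrambled array 3), 0 to 2 and 0 to 2 without OHT, and 8 to 9 higher and 5 to 8 lower between hairpins (5 without shFOXO707 array 2). A replicate block on the 12 numbered arrays gave 2 rising and 19 falling for OHT in scrambled cells (3 and 22 on those arrays with no block, an alternative chosen after seeing the data), 5 higher and 0 lower for knockdown with OHT (10 and 3 with no block), and 9 and 8 between hairpins (9 and 8). For knockdown with OHT the replicate block ended the calls of PSMA2 (adjusted p = 0.101), PSMC2 (0.09), PSMD2 (0.0692), PSMD3 (0.0553), PSMD4 (0.143) and PSMD6 (0.0535). The numbers did not pair the arrays: deviations from group means of same-numbered arrays correlated at -0.015 to 0.046 between scrambled arrays with and without OHT, and at -0.060 to 0.047 between the 3 groups with OHT. No paired analysis was possible for the other comparisons because the knockdown arrays without OHT carry no number. The cause of these shifts was not tested.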

Other observations

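With OHT in scrambled cells, 0 of 3 ubiquitin genes and ubiquitin-activating enzymes tested rose and 2 fell, and 2 of 8 genes of ubiquitin shuttles and the unfoldase VCP rose and 2 fell, in limma with the same adjustment. Of all genes tested 24.0% rose and 46.4% fell there. UBA6, an enzyme that activates ubiquitin, fell by 0.75 ± 0.07 (adjusted p = 5.13e-07). FAF2 and NPLOC4, cofactors of the unfoldase VCP, fell by 1.19 ± 0.11 each (adjusted p = 3.79e-07 for FAF2 and 4.62e-07 for NPLOC4), and UFD1, the partner of NPLOC4, rose by 0.22. These 4 calls held with arrays centred on their median and after quantile normalization. EIF3J, a loosely bound part of the translation factor complex eIF3, rose by 1.02 ± 0.07 while 6 of the 12 genes of that list fell.

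Between the hairpins with OHT, 1 of 9 COP9 signalosome genes was higher in shFOXO707 than in shFOXO33 cells and 3 were lower (median -0.21), of 7 CCT chaperonin genes 3 and 0 (median 0.06), and of the 8 other proteasome subunits and bound proteins 3 and 4 (median -0.19). Of 8 shuttle and unfoldase genes 1 was higher and 0 lower, and of 8 targets of NFE2L1 and NFE2L2 other than proteasome genes 4 and 3, where 22.1% of all genes tested were higher and 21.4% lower. Single genes of these lists, named for their small adjusted p, are given next. COPS8, a subunit of the COP9 signalosome, averaged 2739 in shFOXO707 cells and 483.5 in shFOXO33 cells (2.46 ± 0.07, adjusted p = 8.45e-13). SEM1, the small lid protein outside the naming rule, averaged 2594 in shFOXO707 cells and 1189 in shFOXO33 cells (1.11 ± 0.08, adjusted p = 1.40e-08). VCP (0.72 ± 0.06) and CCT5 (0.79 ± 0.06) differed in the same direction, and HMOX1, a target of NFE2L2, in the other (-2.11 ± 0.11, adjusted p = 5.09e-10).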
